A study of Homo sapiens with 4 samples.

Results

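Involucrin (IVL), 4 transglutaminases (TGM1, TGM2, TGM3 and TGM5), the plakins periplakin (PPL) and envoplakin (EVPL), cornifelin (CNFN), cystatin A (CSTA) and the serine protease inhibitor SPINK5 are described here in Ca9-22 cells, a human squamous carcinoma line of the gingiva, with and without silencing of KPNA4. KPNA4 is karyopherin alpha 4, an importin that carries proteins with a nuclear localization signal into the nucleus. The 10 genes were picked by name for their place in the cornified envelope, and their probes by the RefSeq transcript each array annotation gives, which yielded 13 probes out of 34127 and 10 genes out of 27708. The comparison asks how RNA of envelope genes differs once the importin is depleted. There were 2 control cultures, given a negative control, and 2 cultures with KPNA4 knocked down. All 4 were grown in DMEM with 10% serum and antibiotics, and RNA was taken 3 days after transfection. Each was hybridized in the Cy3 channel to a one-color Agilent array, and all 4 arrays lay on 1 slide. The labels speak of siRNA transfection whereas the study's description of the array experiment speaks of short hairpins, and neither says whether the 2 knockdown cultures received different silencing sequences. The labels call the samples replicates without saying that the cultures were independent, so p-values measure only the spread between these samples, which may be technical.

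The cornified envelope is the layer of crosslinked protein that replaces the plasma membrane of a keratinocyte at the end of its differentiation. Envoplakin and periplakin, plakins that link the membrane to keratin filaments, and involucrin are laid down first beneath the membrane. Transglutaminases, enzymes that join glutamine to lysine side chains, then fuse them with loricrin and small proline-rich proteins. Cornifelin and cystatin A, an inhibitor of cysteine cathepsins, are also built into the envelope, while SPINK5 encodes LEKTI, which restrains the kallikreins that free the outermost cells. Oral carcinoma cells such as Ca9-22 come from an epithelium that makes parts of this program.

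Promoter sequence was at hand for 5 of the 10 genes, and 3 are shown because their genes went different ways on the arrays: IVL was higher after knockdown, CNFN was lower and SPINK5 did not pass the test. Each is the 250 bases before the transcription start in RefSeq on GRCh38.p14, written 5′ to 3′ on the strand of the gene. IVL lies on the plus strand at chr1:152908296-152908545, SPINK5 on the plus strand at chr5:148063730-148063979 and CNFN on the minus strand at chr19:42390298-42390547. Capitals mark matches on either strand to 4 motifs, the AP-1 site TGANTCA, the TATA box TATAAA, the GC box GGGCGG and the CACCC box CCACCC.
IVL: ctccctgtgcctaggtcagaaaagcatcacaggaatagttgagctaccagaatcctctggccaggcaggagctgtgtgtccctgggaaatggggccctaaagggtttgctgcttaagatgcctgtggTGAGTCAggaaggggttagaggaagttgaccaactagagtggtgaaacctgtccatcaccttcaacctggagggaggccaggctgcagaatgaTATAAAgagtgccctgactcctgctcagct
SPINK5: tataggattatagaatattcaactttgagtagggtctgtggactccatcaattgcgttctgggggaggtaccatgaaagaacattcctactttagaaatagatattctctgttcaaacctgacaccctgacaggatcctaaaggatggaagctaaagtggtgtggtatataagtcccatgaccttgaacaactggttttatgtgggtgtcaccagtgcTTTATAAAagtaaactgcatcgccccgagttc
CNFN: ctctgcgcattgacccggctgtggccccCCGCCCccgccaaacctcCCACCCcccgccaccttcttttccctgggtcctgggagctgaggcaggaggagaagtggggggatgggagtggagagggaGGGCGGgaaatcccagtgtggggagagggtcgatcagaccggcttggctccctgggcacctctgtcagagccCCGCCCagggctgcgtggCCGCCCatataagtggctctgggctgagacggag
The IVL window held 1 AP-1 match, TGAGTCA, from base -123 to -117 counted back from the start, and a TATA match from -30 to -25. The other 4 envelope promoters (TGM3, TGM5, CNFN and SPINK5) had no AP-1 match, and 6.57% of 35116 promoters of the same length had at least 1. SPINK5 held a TATA match from -30 to -25, which overlapped a match on the opposite strand that began at -32, and TGM3 also held TATA matches. That motif occurred in 10.7% of all promoters. CNFN held 4 GC box matches and 1 CACCC box match from -204 to -199, motifs found in 42.6% and 31.3% of all promoters. The 3 windows had GC contents of 53.2% for IVL, 41.6% for SPINK5 and 68.4% for CNFN, against a median of 58.0% over all promoters. A match is a match of letters only, and factor binding was not measured. TGM1, TGM2, PPL, EVPL and CSTA had no entry in the promoter table.

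The arrays were close within groups and apart between them. Between 70.2% and 71.0% of probes were well above background on each array, and no gene spot was saturated. Across 19540 genes tested, the control arrays correlated at 0.998 and the knockdown arrays at 0.998, while arrays of different groups correlated at 0.979. The numbers of genes at least 2-fold apart were 131 and 134 within groups and 1821 to 1929 between groups. Every one of 8 squamous epithelial markers was well above background on all 4 arrays. Their summed signal over the 75th percentile was 238 and 237 in control against 212 and 203 after knockdown. SFN and EPCAM, the brightest, fell (log2 fold change -0.28 and -0.51), but were at 0.23 and -0.01 without scaling. KRT5, CDH1, KRT14, DSG3 and KRT6A were called higher (1.00, 1.16, 1.39, 1.73 and 6.94), and TP63 was not called. Among markers of other cell types, COL3A1, PECAM1, KDR and TYR were not well above background on any array. The summed fibroblast list (6 genes) was 0.143 and 0.147 in control against 0.330 and 0.345 after knockdown, the leukocyte genes PTPRC, CD3E, CD14 and ITGAM 4.16 to 4.21 against 5.85 to 6.20, the endothelial list (4 genes) 0.0890 to 0.0959 against 0.0636 to 0.0671 and the melanocyte list (4 genes) 0.156 to 0.171 against 0.170 to 0.176. Most of the leukocyte signal was CD14, which rose by 0.54 on the log2 scale (limma adjusted p = 0.00588) and by 1.04 without scaling. PTPRC and CD3E went the other way (log2 fold change -0.55 and -1.48, limma adjusted p = 0.0338 and 0.004), and ITGAM was not called. Without scaling PTPRC was at -0.05 and CD3E at -0.98. Among the fibroblast genes COL1A1, COL1A2 and PDGFRB rose (1.62, 1.24 and 0.56), PDGFRB being well above background on only 1 control array. DCN was not called. LUM was well above background in control alone, and dim there (-7.00 and -7.15 on the log2 scale relative to the 75th percentile). The part of these markers in the results was not tested, and in bulk RNA a change in the share of cells and a change in RNA per cell cannot be told apart. RPS4Y1, a Y-linked gene named after its values were seen, was at least 43.4-fold higher after knockdown. It rose from background level in the 2 controls to a clear signal in both knockdown cultures. Whether the cultures differed in origin was not tested.

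KPNA4 itself was lower in both knockdown cultures. Its log2 level, given here and throughout relative to the 75th percentile of the array, was 4.02 and 4.03 in control and 2.36 and 2.05 after knockdown. The decrease was 3.53-fold (95% interval 2.81 to 4.43, limma adjusted p = 0.00183).

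IVL, TGM1 and PPL rose after KPNA4 knockdown, TGM1 by 2.97-fold, IVL by 2.80-fold and PPL by 1.71-fold. CNFN fell 1.70-fold and CSTA 1.54-fold relative to the 75th percentile, but neither passed the test when the arrays were left unscaled. EVPL (1.38-fold) and the brighter probe of TGM2 (1.31-fold) also fell on this scale, and their sign turned without scaling. SPINK5 did not pass the test, and TGM3 and TGM5 were not well above background on any array. Thus 8 of the 10 genes passed the filter on dim signals, with 3 higher, 4 lower and 1 not called at an adjusted p of 0.05. Of all genes tested, 20.3% were called higher and 29.5% lower, so 49.8% were called in one direction or the other. The median log2 fold change of the 8 genes was -0.13, beside -0.10 for all genes. In 3 of them the knockdown values both exceeded the control values and in 4 both lay under them, against 31.7% and 48.2% of all genes.

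**Figure D1:**
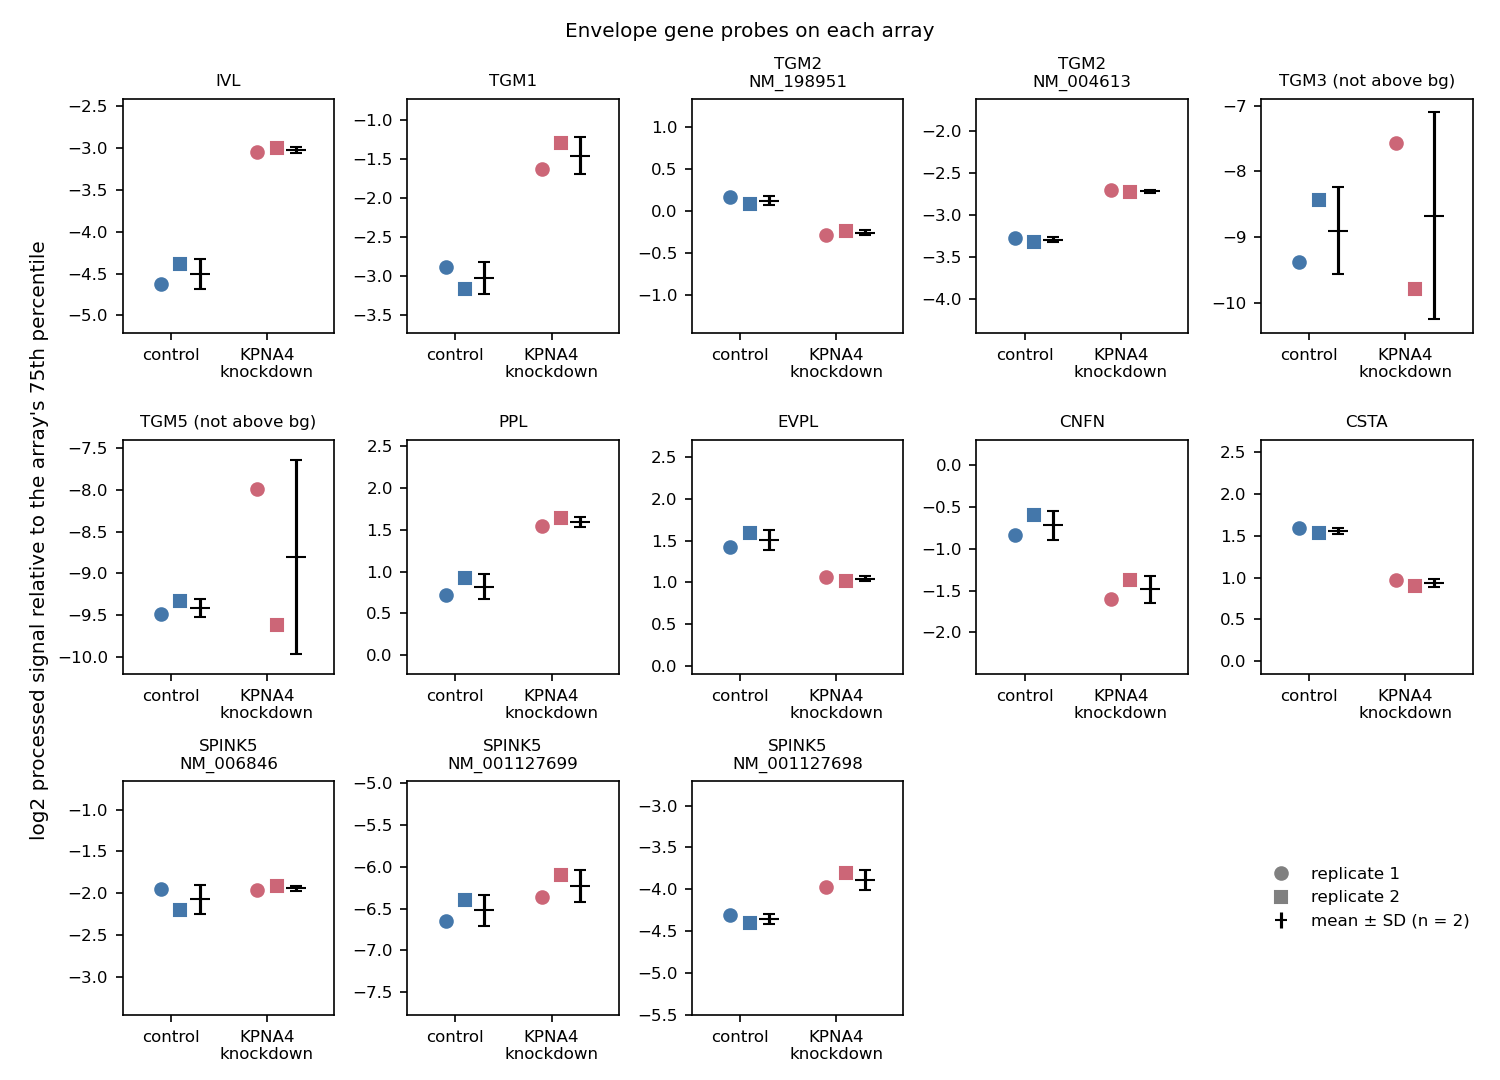
Log2 signal relative to the 75th percentile of the array (vertical axis) for the 13 probes of the 10 genes, with 1 point per array and bars for the mean ± SD (n = 2 per group). IVL, TGM1 and PPL sit higher on both knockdown arrays, EVPL, CNFN and CSTA lower (without scaling the log2 fold change is 0.04 for EVPL and stays negative but uncalled for the other two), and the 2 probes of TGM2 move in opposite directions.

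The scaling matters for the smaller changes because the 75th percentile signal was 1466 and 1381 on the control arrays but 1938 and 2096 on the knockdown arrays. Without scaling, the median log2 fold change of all genes moved from -0.10 to 0.40, and 57.6% of genes were called higher and 5.35% lower. Relative to the median of all genes, the log2 change was 1.67 for TGM1, 1.59 for IVL, 0.87 for PPL and 0.24 for SPINK5. On the same footing it was -0.28 for the brighter TGM2 probe, -0.36 for EVPL, -0.52 for CSTA and -0.66 for CNFN. The source of the brighter signal on the knockdown arrays was not tested.

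Involucrin is the rod-shaped glutamine-rich protein to which other envelope proteins and ceramides are attached, and its gene was dim but measured on every array. The log2 level of IVL (NM_005547) was -4.63 and -4.38 in the control cultures and -3.05 and -2.99 in the knockdown cultures, so that the groups did not overlap. The group means were -4.50 ± 0.18 and -3.02 ± 0.04 (SD, n = 2 each). The corresponding processed signals were 59.3, 66.3, 235 and 263, while the dimmest probe well above background on each array had a signal between 8.52 and 11.1. The log2 fold change was 1.48 (95% interval 1.20 to 1.77, limma adjusted p = 0.00209), higher than that of 97.0% of genes. It was 1.99 without scaling and 1.36 to 1.61 when any 1 array was left out. Its lowest value among the alternatives was 1.01, with a background correction chosen after seeing the data (limma adjusted p = 0.017). The planned normexp background correction gave 1.55, and there the IVL call was lost (adjusted p = 0.652), as were the calls of all genes.

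Transglutaminase 1, the membrane-bound enzyme of keratinocytes that is lost in lamellar ichthyosis, went the same way as involucrin. TGM1 (NM_000359) stood at a log2 level of -2.88 and -3.17 in control and -1.62 and -1.29 after knockdown. Both knockdown arrays lay above both controls, and the 2 arrays of each group were about equally far apart. The log2 fold change was 1.57 (95% interval 1.12 to 2.02, limma adjusted p = 0.00464), with 97.2% of genes below it. It was 2.07 without scaling and 1.40 to 1.73 with an array left out.

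Transglutaminase 2, the widely expressed tissue transglutaminase, gave opposite answers on its 2 probes. The probe annotated to NM_198951, a transcript variant that encodes a shorter protein, read 0.16 and 0.09 in control and -0.28 and -0.24 after knockdown. The probe annotated to NM_004613, the variant of the full-length protein, read -3.27 and -3.32 in control and -2.70 and -2.73 after knockdown. Neither probe showed overlap between groups, the first being lower and the second higher in the knockdown cultures. The log2 fold change was -0.39 for the NM_198951 probe (95% interval -0.56 to -0.21, limma adjusted p = 0.0124), and 0.12 with no scaling. That call was also lost without either knockdown array (adjusted p = 0.0791 without knockdown replicate 1 and 0.0695 without replicate 2). For the NM_004613 probe it was 0.58 (95% interval 0.41 to 0.74, adjusted p = 0.00451 in the fit over 24185 probes, of which 20% were called higher and 28.4% lower), and 1.08 with no scaling. The gap between the 2 probes within an array, which no scaling by a constant can move, was -3.43 and -3.40 in control and -2.42 and -2.49 after knockdown. It thus changed by 0.96 on the log2 scale (95% interval 0.75 to 1.17, limma adjusted p = 0.00613 over 5667 pairs of probes of 1 gene, of which 23.1% were called). Which bases each probe covers was not checked, and a mean over both probes gave a log2 fold change of 0.09 (adjusted p = 0.245).

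Transglutaminase 3, the epidermal enzyme of hair follicle and upper epidermis, and transglutaminase 5, mutated in acral peeling skin, were not well above background on any array. TGM3 (NM_003245) had processed signals of 2.21 and 4.00 in control and 10.2 and 2.36 after knockdown, and TGM5 (NM_201631) of 2.04, 2.14, 7.65 and 2.66. The knockdown replicate 1 array read highest for both genes and knockdown replicate 2 did not follow it. No fold change is given for either. In the rest of the family (TGM4, TGM6, TGM7, F13A1 and EPB42), TGM7 alone could be tested. On the scaled arrays TGM7 was at least 1.48-fold lower after knockdown, where it was not well above background. It entered the test only through the control arrays. Without scaling its log2 fold change was -0.12 and it was not called, so the bound rests on the scaling.

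The plakin partners, which form a heterodimer in the desmosomal plaque and under the membrane, parted from each other. PPL (NM_002705) read 0.71 and 0.93 in control and 1.55 and 1.64 after knockdown. Both knockdown arrays were above both controls, and the log2 fold change was 0.77 (95% interval 0.51 to 1.04, limma adjusted p = 0.00688), above 92.5% of genes and 1.27 without scaling. EVPL (NM_001988) read 1.43 and 1.59 in control and 1.06 and 1.02 after knockdown. Its log2 fold change was -0.46 (95% interval -0.69 to -0.24, limma adjusted p = 0.0143), but 0.04 with no scaling, as the processed signals of 3938 and 4151 in control and 4052 and 4250 after knockdown overlapped. The EVPL call was lost without knockdown replicate 1 (adjusted p = 0.0615) or without knockdown replicate 2 (0.0782). The difference of the PPL level from the EVPL level within an array went from -0.71 and -0.66 in control to 0.49 and 0.62 after knockdown, a change of 1.24 that scaling by a constant leaves as it is. The exact two-sided permutation p of that change was 0.333, the smallest that 2 arrays against 2 can give.

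Among 5 other plakins, EPPK1 and DSP rose, PLEC and MACF1 fell and DST was not called, beside 20.3% of all genes higher and 29.5% lower. Without scaling 3 of the plakins were called higher and 0 lower, beside 57.6% and 5.35% of all genes. The median log2 fold change of the 5 plakins was 0.06. Desmoplakin (DSP), which ties keratin filaments to desmosomes, read 4.48 and 4.38 in control and 5.15 and 5.12 after knockdown, a log2 change of 0.71 (limma adjusted p = 0.00376). Epiplakin (EPPK1), a keratin-binding plakin, read -3.18 and -3.31 against -2.40 and -2.37, a log2 fold change of 0.86 (adjusted p = 0.00305).

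**Figure D2:**
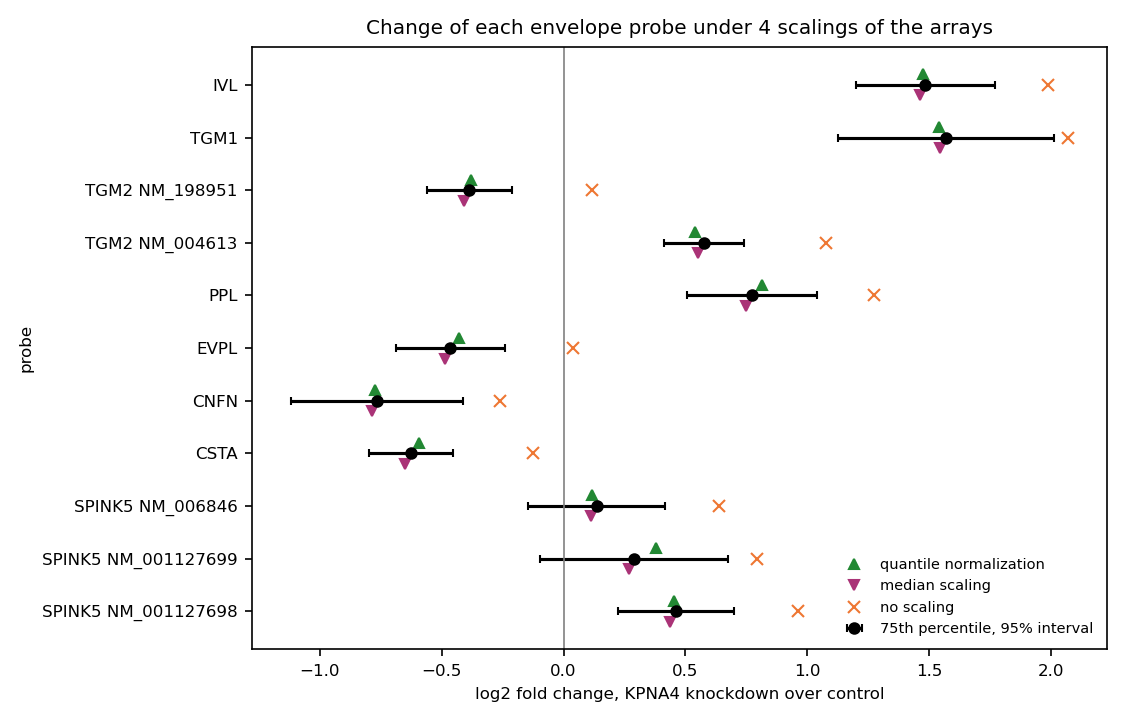
Log2 fold change of knockdown over control (horizontal axis) for the 11 probes well above background on all arrays, under 4 ways of scaling the arrays, with 95% intervals. TGM1, IVL and PPL stay above 0 under all 4, while EVPL (0.04) and the NM_198951 probe of TGM2 (0.12) cross 0 when no scaling is applied.

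Cornifelin and cystatin A were both lower relative to the 75th percentile. CNFN (NM_032488) read -0.84 and -0.60 in control and -1.60 and -1.37 after knockdown. The groups did not overlap on this scale, and only 7.05% of genes had a lower log2 fold change than its -0.76 (95% interval -1.12 to -0.41, limma adjusted p = 0.0136). The processed signals were 819 and 913 in control and 640 and 812 after knockdown, and without scaling the log2 fold change was -0.26 (adjusted p = 0.134). CSTA (NM_005213) read 1.59 and 1.54 in control and 0.96 and 0.90 after knockdown. Its log2 fold change was -0.63 (95% interval -0.80 to -0.46, limma adjusted p = 0.00409), and -0.12 without scaling (adjusted p = 0.359).

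Of 8 other cystatins, 5 could be tested. CST3 and CST5 rose, CST2 (not well above background on 1 knockdown array) and CST6 fell and CSTB was not called. Of all genes, 20.3% were called higher and 29.5% lower. Without scaling 3 of the cystatins were higher and 0 lower, beside 57.6% and 5.35% of all genes. Cystatin C (CST3), a secreted inhibitor made by most cells, read 1.72 and 2.04 in control and 2.81 and 2.77 after knockdown, a log2 change of 0.91 (limma adjusted p = 0.00862). CST5, a cystatin of saliva, read -0.99 and -0.80 against 0.03 and 0.00, also 0.91 (adjusted p = 0.004).

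SPINK5 had 3 probes, and the brightest did not pass the test. The NM_006846 probe read -1.95 and -2.20 in control and -1.96 and -1.92 after knockdown, and the knockdown replicate 1 value lay between the controls. Its log2 fold change was 0.14 (95% interval -0.15 to 0.42, limma adjusted p = 0.322), while without scaling it was 0.64 and called (adjusted p = 0.00419). The NM_001127698 probe read -4.31 and -4.40 against -3.98 and -3.81, a log2 fold change of 0.46 (95% interval 0.22 to 0.70, adjusted p = 0.0176 in the fit over all probes). The NM_001127699 probe read -6.65 and -6.39 against -6.37 and -6.10, with a log2 fold change of 0.29 (95% interval -0.10 to 0.68, adjusted p = 0.159). None of the 3 differences between these probes passed the test over probe pairs, with adjusted p of 0.0883, 0.436 and 0.615.

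Only 2 of 9 other SPINK genes could be tested, and SPINK7, an inhibitor of squamous epithelium, was called lower (log2 fold change -0.45, limma adjusted p = 0.0297), though not without scaling (0.06). It read -0.32 and -0.07 in control and -0.62 and -0.66 after knockdown. Of 10 proteases grouped with LEKTI and cystatin A (kallikreins, cathepsins and ST14), 7 were well above background on all arrays. Among these 4 were higher, 2 lower and 1 not called, with a median log2 fold change of 0.32. With KLK7, which entered the test only through the knockdown arrays, the counts were 5 higher and 2 lower, beside 20.3% and 29.5% of all genes. Without scaling they were 5 and 0, beside 57.6% and 5.35% of all genes. KLK5 and KLK7 are kallikreins that cleave desmosomal proteins. KLK5 read -5.55 and -5.19 in control and 2.41 and 2.44 after knockdown, a log2 change of 7.80 (limma adjusted p = 0.000298). KLK7 was not well above background in control and was at least 9.08-fold higher after knockdown.

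**Figure D3:**
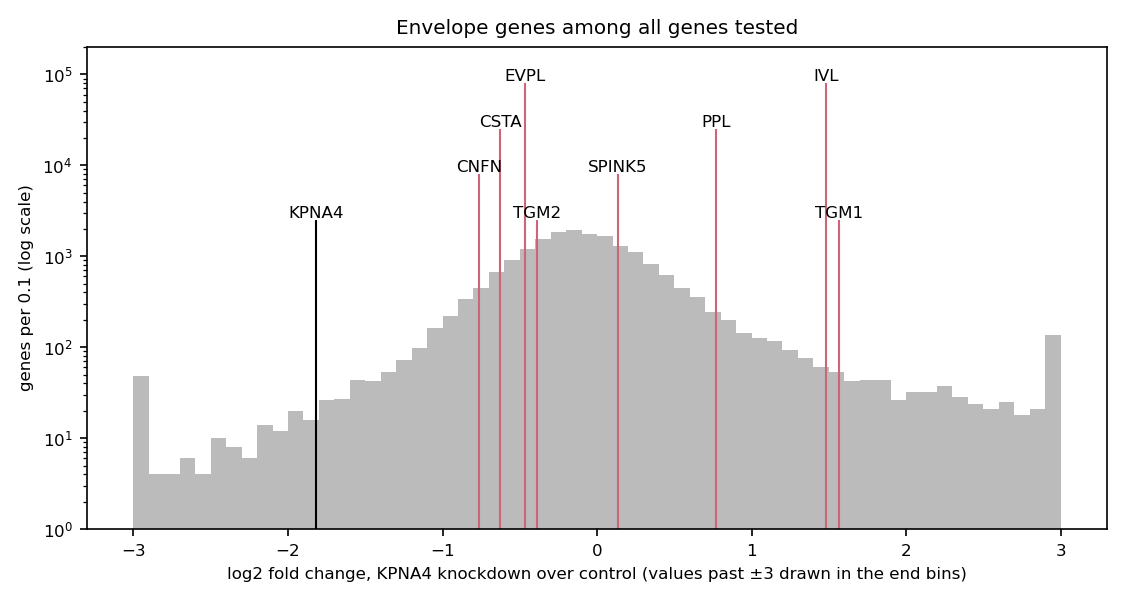
Histogram of log2 fold changes (horizontal axis) for all 19540 genes tested (vertical axis, number of genes), with the 8 tested envelope genes and KPNA4 marked by lines. TGM1 (1.57), IVL (1.48) and PPL (0.77) lie in the right tail, and the other genes lie on both sides of the median of -0.10.

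Among other envelope precursors and partners, 15 of 23 on the list were well above background on all arrays, and 9 of these were called higher and the other 6 were not called, with a median log2 fold change of 0.65. A further 4 passed the filter with dim signals. FLG, called lower, entered only through the control arrays, KRT1, called higher, only through the knockdown arrays, and CRNN, called lower, and CDSN, not called, lacked a clear signal on 1 knockdown array. Over all 19 tested the counts were 10 higher and 2 lower, beside 20.3% and 29.5% of all genes. With quantile normalization they were 12 higher and 1 lower, beside 22.3% and 25.1% of all genes. Without scaling they were 15 and 1, beside 57.6% and 5.35%. The largest changes were those of SPRR3, a small proline-rich crosslinking protein, and SCEL, or sciellin. SPRR3 read -6.49 and -6.32 in control and -0.13 and 0.16 after knockdown, a log2 change of 6.42 (limma adjusted p = 0.000304). SCEL read -5.57 and -5.91 against -0.58 and -0.55, a log2 fold change of 5.18 (adjusted p = 0.000384). These shifts were larger than that of any of the 8 tested genes described above.

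Among 16 regulators of envelope gene transcription, mostly transcription factors and including the receptor NOTCH1, 7 were higher, 1 lower (FOSL1, a subunit of AP-1) and 8 not called. Of all genes, 20.3% were called higher and 29.5% lower. The median log2 fold change of the 16 was 0.28. Without scaling 13 were higher and 1 lower, beside 57.6% and 5.35% of all genes. CEBPA read -2.49 and -2.44 in control and -0.23 and -0.18 after knockdown, a log2 change of 2.26 (limma adjusted p = 0.000408). OVOL1 read -0.45 and -0.34 against 1.34 and 1.39, a log2 fold change of 1.76 (adjusted p = 0.000724).

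**Figure D4:**
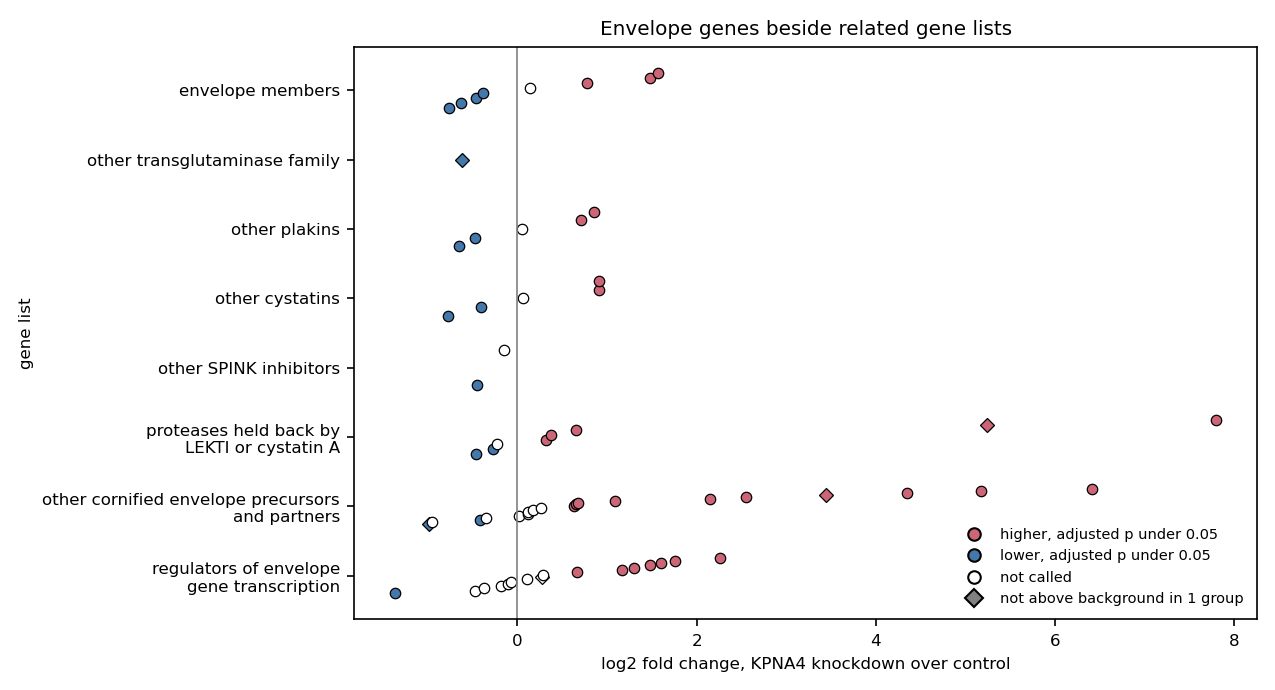
Log2 fold change of knockdown over control for each tested gene (1 point per gene) in the 10-gene set and in each related list. Precursors and proteases reach 6.42 and 7.80, TGM7, KLK7, FLG, KRT1 and POU2F3 were measured in 1 group alone, and the 8 tested genes of the set span -0.76 to 1.57.

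Chromosomal neighbours were read from the RefSeq gene order, as the nearest protein-coding gene on either side of each of the 10 genes. Of these 20 neighbours 10 were tested on the scaled arrays. RPRD1B beside TGM2 was higher (log2 fold change 0.27), while SRP68 beside EVPL and LIPE beside CNFN were lower (-0.25 and -0.41). TGM7 beside TGM5 was lower by the bound given above, and 6 were not called. The shares among all genes were 20.3% higher and 29.5% lower. Leaving out the scaling shifts every gene upward by the same amount. EVPL, with a larger fall of -0.46, was at 0.04 without it, so the falls of SRP68 and LIPE rest on the scaling. SMCP and SPRR5, the neighbours of IVL, could not be tested, and TINF2 and RABGGTA beside TGM1 were not called. The named genes whose log2 values, centered on their mean, lay nearest to those of IVL over the 4 arrays were PSMG3-AS1, BARX2 and NECTIN4, at root mean square differences of 0.0255, 0.0260 and 0.0303 among 15023 genes. Their log2 fold changes were 1.53, 1.50 and 1.47, chosen to resemble the 1.48 of IVL and given as a description.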

How the data were processed

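One-color Agilent arrays measured total RNA of 4 Ca9-22 cultures, 2 per group. The deposited scanner files hold spot intensity written by Feature Extraction 11.0.1.1, where the authors' processed signal is already background-corrected. A deposited value table holds for 24209 probes a linear ratio, the processed signal over a constant of each array close to its 75th percentile. Its column medians were 0.327 to 0.334.

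From the intensity, log2 processed signals minus the 75th percentile of each array were computed, flagged spots were left out and spots of a probe were averaged. A probe was kept where a whole group (2 arrays) read well above background, and the brightest probe stood for a gene. Knockdown was tested against control with limma (version 3.58.1, under R 4.3.3, with lmFit, eBayes and Benjamini-Hochberg over 19540 genes, threshold 0.05), tested on simulated data. Fits over every probe and over pairs of probes of a gene used the same model. The lowest signal well above background set the bounds. The small number of arrays limits the precision. The 10 genes, lists and tests were chosen with earlier results of these data known. KPNA4, the 10 genes and, of each list, the 2 called genes with the largest change were named. PLEC, MACF1, DST, CST2, CST6, CSTB, FLG, CRNN, CDSN, KRT1, POU2F3, NOTCH1, FOSL1, RPS4Y1, CD14 and the other single marker genes were named after their values were seen. Scaling, background correction, the filter, the choice of probe, the variance model, a replicate block and each array in turn were varied. The normexp alternatives used median spot signals with an offset of 50. Of 34127 probes, 25771 matched a gene symbol through their RefSeq accession (GRCh38.p14 tables), and promoters came from RefSeq. The result of 1 marker gene is not reported here.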

Additional observations from a re-analysis of the deposited data

How the results depend on the processing

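Under 16 alternatives per gene, the calls for IVL, TGM1, PPL and KPNA4 kept direction and side of the threshold in 15, CSTA and SPINK5 in 14, CNFN in 13, EVPL in 12 and TGM2 in 10. Without scaling, 11256 genes (57.6%) were higher and 1046 (5.35%) lower. Of the 8 tested envelope genes 4 were higher and 0 lower (0 also at an unadjusted p under 0.05), and EVPL turned to 0.038 and TGM2 to 0.12. With normexp background correction, limma called 0 genes higher and 0 lower, 0 and 0 of the envelope genes (754 and 669 genes, and 1 and 1 envelope genes, at an unadjusted p under 0.05), and KPNA4 was -1.94 (adjusted p = 0.552). The knockdown replicate 2 array had 3 spots with a local background of at least 1000, the highest 43681 against a median of 29. In a setting chosen after seeing the data, normexp without such spots, 1809 genes were higher and 1905 lower, with 3 envelope genes higher and 2 lower. TGM2 and CNFN lost the call there (adjusted p = 0.0662 and 0.0629), and IVL was 1.01. Averaging probes turned TGM2 to 0.095 and brought SPINK5 past the threshold (0.30, adjusted p = 0.0417). With every probe on its own, 5 envelope genes were higher and 4 lower. TGM2 was counted on both sides, with its second probe at 0.58 and its brighter probe at -0.39. The causes of these changes were not tested. Leaving out each replicate in turn gave 2152 to 3595 genes higher, 2524 to 4743 lower, 3 to 3 envelope genes higher, 2 to 4 lower and KPNA4 at -1.97 to -1.67. The difference of replicate 1 from replicate 2 did not correlate between the groups over 19540 genes (correlation -0.03). The labels do not say whether the replicate numbers pair the cultures. With a replicate block, 3262 genes were higher and 4637 lower, with 3 and 4 envelope genes and no envelope call changed, and the adjusted p of KPNA4 was 0.00534. A slide block was not run, as all arrays lay on 1 slide.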
